A study of Mus musculus with 21 samples.

Results

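9 genes of hepatic glucose metabolism were followed through 21 RNA-seq libraries of mouse liver: *Pck1*, *Pck2*, *G6pc*, *Fbp1*, *Pcx*, *Pklr*, *Slc2a2*, *Ppp1r3c* and *Ppp1r3g*. They were taken from a count table of 46078 genes as the rows whose Ensembl identifier carries one of these symbols in GENCODE M21 (build GRCm38). All 9 had a row and passed the filter on low counts. The animals lacked *Cse* (gene symbol *Cth*), which encodes the cystathionine γ-lyase that makes cysteine from cystathionine (labelled cse, here KO), or belonged to the comparison genotype that the labels call WT. The study's text describes its comparison mice as heterozygous, so WT is used here as a label only. Each genotype was given the defined amino acid diet 5CC7 (CTR), the same diet with cysteine removed (noCys) or with tryptophan removed (noTrp), the other amino acids being raised in proportion. There were 3 WT CTR, 4 KO CTR, 4 WT noCys, 3 KO noCys, 2 WT noTrp and 5 KO noTrp libraries. Per the study's methods, the knockout is carried by the whole animal on a 129/C57BL/6 background, and the mice were males of at least 9 weeks. All groups, controls included, first had 3 days of calorie restriction on the control diet. They stayed calorie restricted on the CTR, noCys or noTrp diet and were sampled 2 days after the change.

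Between meals the liver makes glucose from lactate, glycerol and amino acids. Pyruvate carboxylase (*Pcx*) forms oxaloacetate, the phosphoenolpyruvate carboxykinases (*Pck1* in the cytosol, *Pck2* in mitochondria) turn it into phosphoenolpyruvate, fructose-bisphosphatase (*Fbp1*) and glucose-6-phosphatase (*G6pc*) complete the path, and the transporter GLUT2 (*Slc2a2*) lets glucose cross the cell membrane. Liver pyruvate kinase (*Pklr*) runs the last step of glycolysis in the opposite direction, while *Ppp1r3c* and *Ppp1r3g* encode subunits that bring protein phosphatase 1 to glycogen. *Pck1* and *G6pc* are classic targets of glucagon, glucocorticoid and insulin signalling, and *Pck2* is a known target of ATF4, the transcription factor of the integrated stress response (ISR).

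The libraries held 8889951 to 27230852 counts. *Cth* stood at 108 to 452 CPM (counts relative to the TMM-adjusted library size) in the WT libraries and at 6.34 to 15 CPM in the KO libraries, in the direction of every label. Transcripts of the hepatocyte marker genes were abundant in every library, with 35700 to 102000 CPM summed over the 5 markers with a row, and ran from 35700 to 61900 CPM in KO noCys against 87000 to 102000 CPM in WT noCys. KO noCys 1, the highest of its group, lay above 3 KO noTrp libraries (55000 to 59800 CPM) and WT noTrp 2 (60800 CPM). The summed adipocyte markers reached at most 26.8 CPM, and those of skeletal muscle and kidney at most 4.18 and 0.232 CPM. 1 library, WT CTR 3, had 10.2% of its counts in small and ribosomal RNA genes. Another, WT noTrp 1, stood apart from its only partner for several of the 9 genes, as described with each of them. In bulk liver, fewer cells of a type and less RNA per cell cannot be told apart.

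By the median over libraries, *Pck1* was the most abundant of the 9 transcripts and *Pck2* the least abundant. Per kilobase of exon, the median over the 21 libraries was 1772 CPM for *Pck1*, 611 CPM for *Fbp1*, 150 CPM for *G6pc*, 122 CPM for *Pcx* and 56.3 CPM for *Slc2a2*. It was 23.1 CPM for *Pklr*, 13.4 CPM for *Ppp1r3c*, 7.41 CPM for *Ppp1r3g* and 0.808 CPM for *Pck2*. The order of these medians was the same with the length of the longest transcript in place of all exons. Neighbours overlapped over the libraries at most places in this order, given here in CPM per kilobase. *Pck1* (1228 to 2676) overlapped *Fbp1* (488 to 1294), and *G6pc* (54.4 to 482) overlapped *Pcx* (94.1 to 170). From *Slc2a2* (44.0 to 70.5) each overlapped the next: *Pklr* (10.9 to 57.2), *Ppp1r3c* (6.42 to 37.2), *Ppp1r3g* (2.70 to 170) and *Pck2* (0.416 to 11.4). *Ppp1r3g* and *Pck2* had the widest ranges over libraries, with the highest library 63.2 times and 27.5 times the lowest. *Slc2a2* and *Pcx* had the narrowest, at 1.60 times and 1.81 times.

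**Figure D1:**
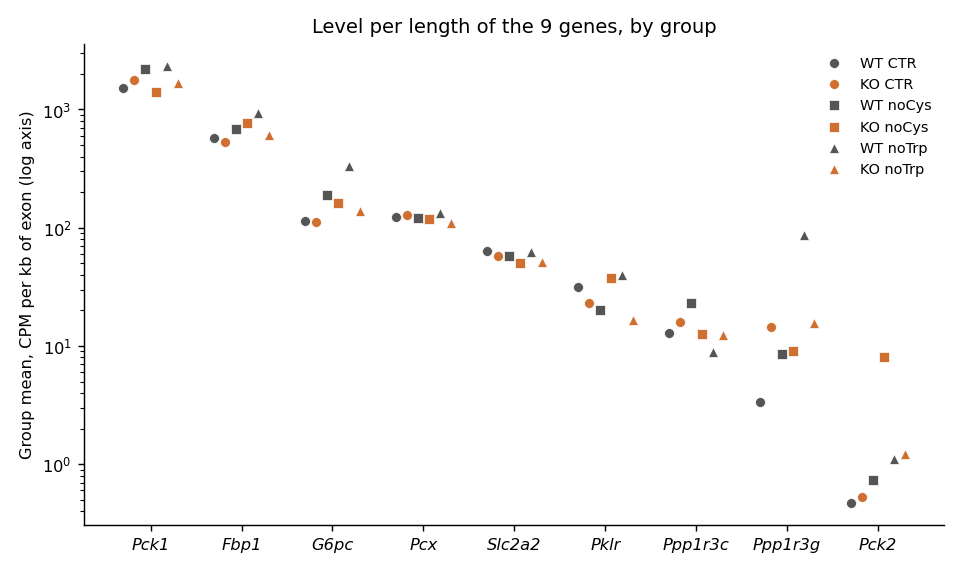
Group means of the 9 genes in CPM per kilobase of merged exons (vertical log axis), with genes ordered by their median; grey is WT, orange is KO, circles are CTR, squares noCys and triangles noTrp. *Pck2* lies lowest in all 6 groups by this length, with means from 0.469 CPM per kilobase, and reaches 8.05 CPM per kilobase in KO noCys. Per kilobase of the longest transcript, its KO noCys mean of 13.6 CPM lies above *Ppp1r3c* (12.6 CPM) and *Ppp1r3g* (10.3 CPM).

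The proximal promoters of the 2 carboxykinase genes are shown because these genes diverged in the data, and that of *G6pc* because it was found to hold the same motif as *Pck2*. The sequences are those of RefSeq on GRCm38.p6, 250 bases before to 50 bases after the transcription start, plus strand, on chr2:173152823-173153122, chr14:55540016-55540315 and chr11:101367466-101367765. Capitals mark a motif match.
Pck1: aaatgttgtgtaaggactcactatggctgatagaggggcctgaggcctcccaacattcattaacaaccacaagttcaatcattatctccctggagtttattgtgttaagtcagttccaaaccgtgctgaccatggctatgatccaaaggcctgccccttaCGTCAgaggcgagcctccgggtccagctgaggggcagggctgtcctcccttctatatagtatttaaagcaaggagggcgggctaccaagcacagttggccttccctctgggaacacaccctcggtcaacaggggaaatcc
Pck2: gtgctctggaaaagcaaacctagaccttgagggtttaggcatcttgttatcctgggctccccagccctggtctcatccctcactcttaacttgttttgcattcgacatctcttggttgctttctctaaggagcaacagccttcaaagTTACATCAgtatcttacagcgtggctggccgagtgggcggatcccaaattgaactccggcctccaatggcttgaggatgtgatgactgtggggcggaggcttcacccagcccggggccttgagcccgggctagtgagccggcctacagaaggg
G6pc: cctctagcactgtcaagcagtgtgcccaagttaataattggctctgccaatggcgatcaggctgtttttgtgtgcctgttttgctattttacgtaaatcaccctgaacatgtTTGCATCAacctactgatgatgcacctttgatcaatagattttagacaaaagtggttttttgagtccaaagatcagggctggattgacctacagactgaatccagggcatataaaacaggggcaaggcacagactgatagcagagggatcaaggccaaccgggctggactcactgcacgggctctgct
In *Pck2* the capitals are a match to the C/EBP-ATF composite element (TGATGNAA, the element that ATF4 binds with a C/EBP partner) on the minus strand, at positions -103 to -96 with the start base counted as 0. *G6pc* held a match to the same element, also on the minus strand, at -138 to -131. In *Pck1* the capitals are the core of the cAMP response element (TGACG, here on the minus strand) at -90 to -86. On both strands, 3.97% of 32851 RefSeq promoters of this length held the composite element and 20.8% held the core. The full cAMP response element (TGACGTCA, which contains the core; 1.79% of promoters) and the forkhead motif TGTTTAC (3.65%) matched none of the 11 promoter windows of the 9 genes. The E-box CACGTG (7.15% of promoters) matched in *Pcx* and *Ppp1r3c*, and the core TGACG also in *Ppp1r3g*.

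Removing cysteine from the diet of KO mice was followed by a large rise of *Pck2* mRNA, with smaller differences in the other 8 genes. With 14370 genes tested and an edgeR adjusted p under 0.05 as the call, KO noCys against WT noCys had 3 of the 9 genes called, *Pck2* and *Pklr* higher and *Pck1* lower, where 28.2% of all genes tested were called. KO noCys against KO CTR had 1 called (*Pck2*, higher; 20.2% of all genes), and KO noCys against KO noTrp had 2 (*Pck2* and *Pklr*, higher; 13.9%). On the noTrp diet, *Pck2* alone was called against the control diet in KO (1.87% of all genes), and *Pck2* and *Ppp1r3g* were called in WT (3.19%), all higher.

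No member was called in 3 comparisons. For KO CTR against WT CTR (0.32% of all genes called) edgeR gave 1 member with an unadjusted p under 0.05, and DESeq2 and limma-voom called 0. For WT noCys against WT CTR (0.661%) 3 members had such a p, and DESeq2 and limma-voom each called *Pck1*. For KO noTrp against WT noTrp (0.195%) 5 members had such a p, DESeq2 called *Pklr* and limma-voom called 0. That comparison rested on which WT noTrp library was kept. Against WT noTrp 1 alone, with a spread assumed from the other groups, 4 members were called lower in KO noTrp: *G6pc* (-1.80), *Fbp1* (-1.08), *Pklr* (-1.80) and *Ppp1r3g* (-3.44). Against WT noTrp 2 alone 0 were called, and the values were -0.44, 0.10, -0.49 and 1.83 for the same genes, so that *Fbp1* and *Ppp1r3g* changed sign. The effect of noCys differed between the genotypes for 2 members, *Pck2* and *Pck1* (7.44% of all genes called). The effect of KO differed between the noCys and noTrp diets also for 2, *Pck2* and *Pklr* (6.35%).

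**Figure D2:**
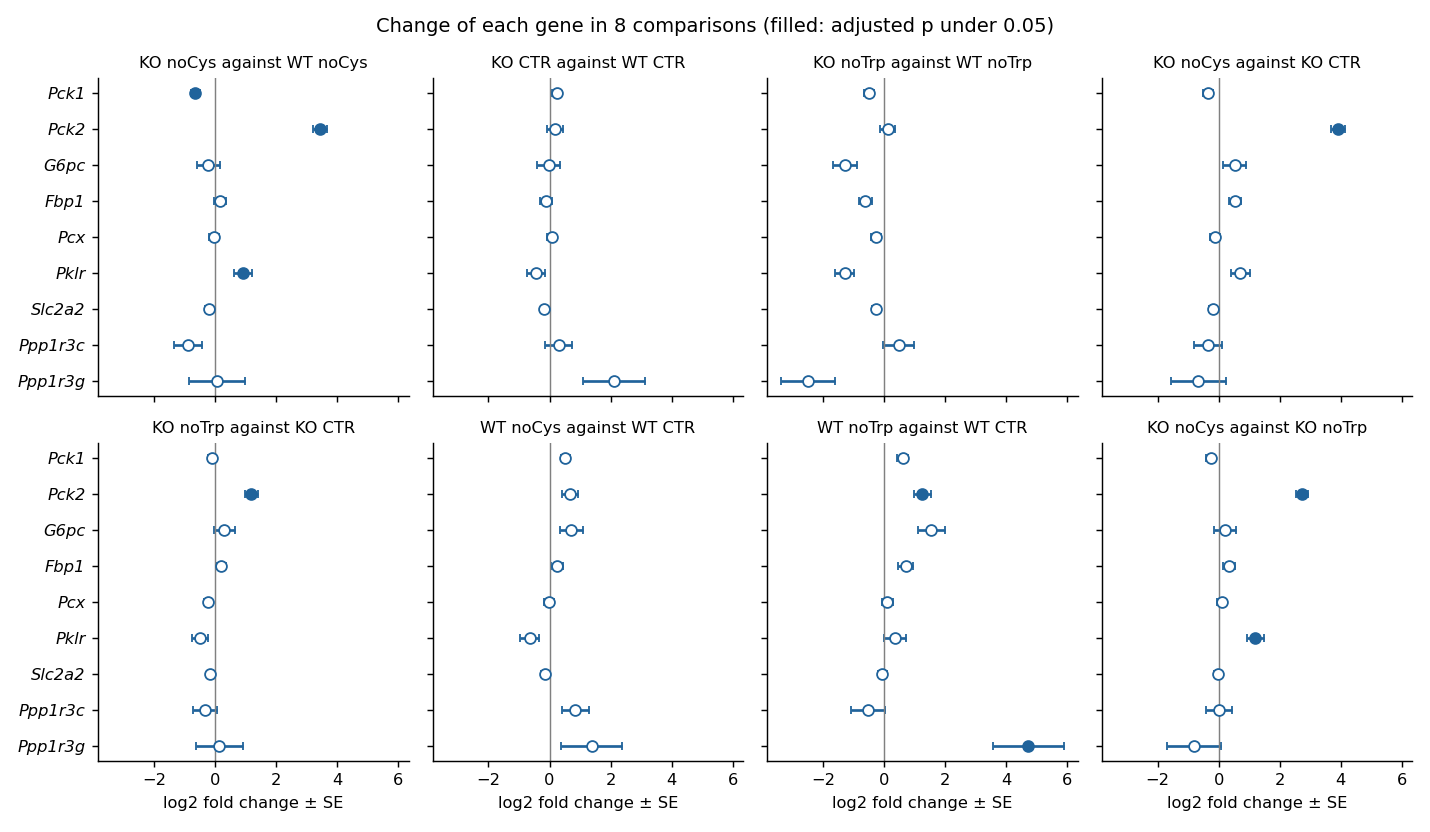
Log2 fold change (horizontal axis) with its standard error for the 9 genes in the 8 comparisons of 2 groups; filled points have an edgeR adjusted p under 0.05. *Pck2* is filled in 5 of the 8 panels, at 3.92 in KO noCys against KO CTR and 3.45 in KO noCys against WT noCys, and *Ppp1r3g* has the widest bars.

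*Pck2* (ENSMUSG00000040618, chr14:55540266-55551242, plus strand) was measured at 46.5, 89.3 and 52.7 CPM in the 3 KO noCys libraries. In WT noCys it was 5.89, 6.31, 5.41 and 5.54 CPM. The control diet gave 4.02, 3.25 and 3.72 CPM in WT and 3.92, 4.50, 4.25 and 3.84 CPM in KO. All KO noCys libraries lay above every other library, and the control groups of both genotypes overlapped. The noTrp libraries fell between: 10.1 and 7.32 CPM in WT and 9.18, 14.5, 7.0, 9.19 and 7.91 CPM in KO, all above every control library. These levels rested on 412 to 1874 counts per library in KO noCys and on 32 to 169 counts in the 18 others.

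In KO noCys, *Pck2* was 10.9-fold higher than in WT noCys (log2 3.45 ± 0.22 SE, edgeR adjusted p = 8.73e-09), the 23rd highest log2 fold change of the 14370 genes. Against KO CTR it was 15.1-fold higher (3.92 ± 0.23, edgeR adjusted p = 2.49e-09), the 5th highest, and against KO noTrp 6.63-fold higher (2.73 ± 0.20, edgeR adjusted p = 4.03e-08). These differences were called under each of 7 other analysis settings and with any single library left out. The genotypes did not differ detectably on the control diet (0.19 ± 0.26, edgeR adjusted p = 0.875) or on noTrp (0.13 ± 0.25, edgeR adjusted p = 0.952).

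The change of *Pck2* with noCys was 9.56-fold larger in KO than in WT (difference of log2 fold changes 3.26 ± 0.35, edgeR adjusted p = 1.82e-05). The KO effect without cysteine exceeded that without tryptophan 9.99-fold (3.32 ± 0.32, edgeR adjusted p = 1.26e-05). In WT, where all 4 noCys libraries also lay above the 3 controls, the difference of 0.66 ± 0.26 was not called (edgeR adjusted p = 0.252).

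Tryptophan removal raised *Pck2* 2.28-fold in KO (1.19 ± 0.21, edgeR adjusted p = 0.00500), and this was called under all alternatives. In WT the rise was 2.39-fold (1.26 ± 0.29, edgeR adjusted p = 0.0237). With 2 WT noTrp libraries, this call was lost without WT CTR 1 (1.33), WT CTR 2 (1.17), WT CTR 3 (1.27) or WT noTrp 1 (1.01), with edgeR adjusted p from 0.0550 to 0.203. It was also lost with limma-voom (adjusted p = 0.241) and in a fit of only the groups compared (adjusted p = 0.125). The exons of *Pck2* overlap those of *Gm10876*, an antisense gene of GENCODE M21 that was not analysed here. The strand setting of the counting is not given in the sources used here.

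*Pck1* (ENSMUSG00000027513, chr2:173153048-173159273, plus strand) was, in contrast, lowest in KO noCys among the group means. Its levels there were 5752, 4332 and 4375 CPM, against 7156, 7696, 7478 and 7663 CPM in WT noCys. The groups did not overlap. KO noCys was 1.56-fold lower (log2 -0.64 ± 0.15, edgeR adjusted p = 0.00430), a call that held under the 7 other settings and with any library left out. Scaling by library totals alone, which moved the median of all genes to 0.20, gave -0.44 (edgeR adjusted p = 0.0192).

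On the control diet *Pck1* was 4211, 6076 and 5423 CPM in WT and 6307, 5347, 6971 and 5937 CPM in KO, which overlap. WT noCys lay above WT CTR in every library, with a difference of 0.52 ± 0.15 that edgeR did not call (adjusted p = 0.117), while DESeq2 (0.51, adjusted p = 0.0332) and limma-voom (0.60, adjusted p = 0.0157) did. KO noCys overlapped KO CTR, with a difference of -0.35 ± 0.15 that edgeR also did not call (adjusted p = 0.113). It was called with limma-voom (-0.45, adjusted p = 0.0208) and without KO noCys 1 (-0.50, edgeR adjusted p = 0.0400).

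The effects of noCys on *Pck1* in the 2 genotypes differed by -0.87 ± 0.22 (edgeR adjusted p = 0.0188). This call was lost without WT CTR 1 (-0.74, edgeR adjusted p = 0.0598), KO noCys 3 (-0.80, edgeR adjusted p = 0.0691) or KO noCys 4 (-0.80, edgeR adjusted p = 0.0557). On noTrp, *Pck1* was 9175 and 6871 CPM in WT and 5393, 6180, 4780, 5617 and 6821 CPM in KO. Both WT noTrp libraries lay above the WT controls, with a difference of 0.62 ± 0.18 that edgeR did not call (adjusted p = 0.0663). It was called with DESeq2 (0.61, adjusted p = 0.0190), with library totals alone (0.70, edgeR adjusted p = 0.0210) and with WT noTrp 1 alone in the group (0.81, edgeR adjusted p = 0.0295). With WT noTrp 2 alone it was 0.39 (edgeR adjusted p = 0.416). The noTrp groups of the 2 genotypes just failed to overlap. Their difference of -0.48 ± 0.16 was not called (edgeR adjusted p = 0.320), and it was -0.26 without WT noTrp 1. KO noCys overlapped KO noTrp, with a difference of -0.26 ± 0.15 that was not called (edgeR adjusted p = 0.254). The KO effects without cysteine and without tryptophan differed by -0.16 ± 0.23, also not called (edgeR adjusted p = 0.746).

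**Figure D3:**
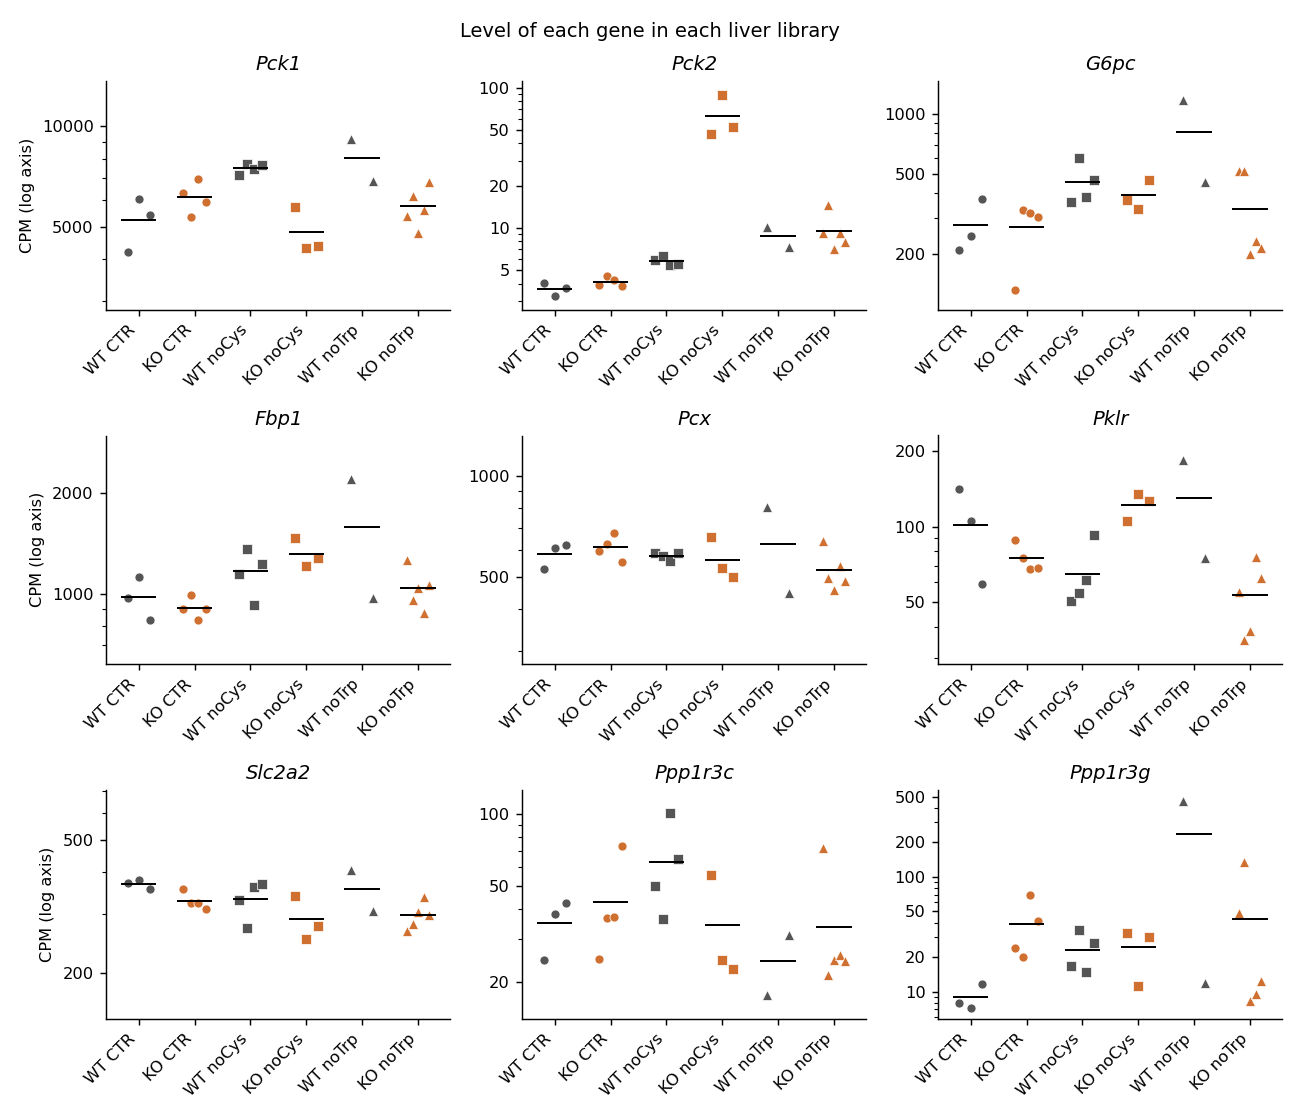
CPM of each gene (vertical log axes, a separate range per panel) in the 21 libraries, by group; grey is WT, orange is KO, each point is 1 library and the line is the group mean. *Pck2* shows the KO noCys libraries at 46.5 to 89.3 CPM above all others, *Pck1* shows them at or below 5752 CPM, and WT noTrp 1 is the highest point for *Pck1*, *G6pc*, *Fbp1*, *Pcx*, *Pklr*, *Slc2a2* and *Ppp1r3g*.

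The balance of the carboxykinases was read within each library, where it does not depend on scaling. *Pck1* exceeded *Pck2* in every library. There were 48.5 to 124 *Pck1* counts for each *Pck2* count in KO noCys, 425 to 862 in KO noTrp and 912 to 939 in WT noTrp. The ratio was 1214 to 1383 in WT noCys, 1189 to 1639 in KO CTR and 1046 to 1871 in WT CTR. Per kilobase of exon, the median excess of *Pck1* was 189 times in KO noCys and 3553 times in KO CTR.

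On the log2 scale, the ratio of *Pck2* to *Pck1* was -6.31 ± 0.68 (SD, n = 3) in KO noCys and -10.33 ± 0.11 (SD, n = 4) in WT noCys. The difference was 4.02 ± 0.39 (SE), and the exact two-sided permutation p of 0.0571 is the smallest that 3 against 4 libraries allow. Against KO CTR (-10.52 ± 0.21, SD, n = 4) the difference was 4.21 ± 0.41, with the same exact permutation p. Against KO noTrp (-9.26 ± 0.37, SD, n = 5) it was 2.96 ± 0.42 (exact permutation p = 0.0357, the smallest possible).

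KO noTrp exceeded KO CTR by 1.26 ± 0.20 (exact permutation p = 0.0159, the smallest possible), and WT noTrp exceeded WT CTR by 0.60 ± 0.24 (exact permutation p = 0.2, the smallest possible). KO noTrp also exceeded WT noTrp, by 0.58 ± 0.17 (exact permutation p = 0.0952, the smallest possible). KO CTR against WT CTR (-0.07 ± 0.27) and WT noCys against WT CTR (0.12 ± 0.25) overlapped, with exact permutation p of 0.800 and 0.571. Over the 8 comparisons the lowest adjusted p was 0.114, so none passed 0.05 in groups of this size, although 6 of the 8 had no overlap between libraries.

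**Figure D4:**
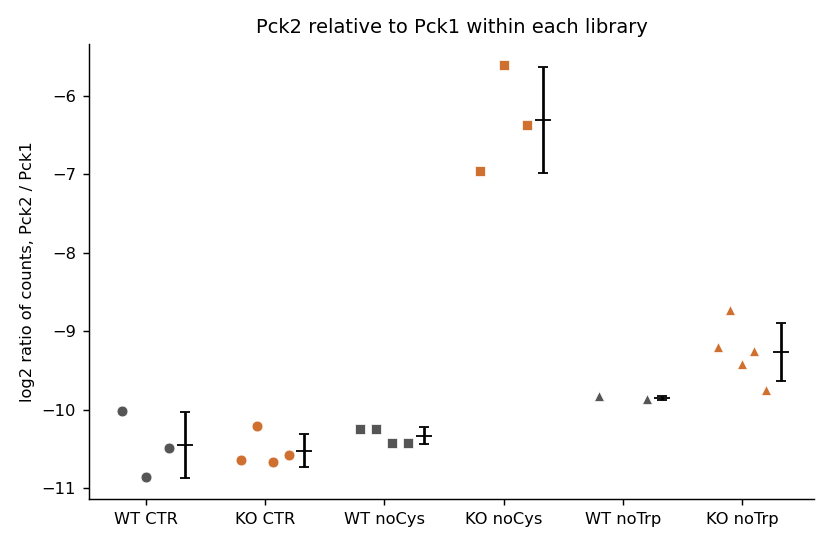
Log2 ratio of *Pck2* to *Pck1* counts (vertical axis) in each of the 21 libraries, by group, with the group mean and SD as a bar beside the points. KO noCys lies at -6.95 to -5.60, and every other library lies at or below -8.73.

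The genes whose pattern over the 21 libraries was most like that of *Pck2* were *Sars*, *Cct2*, *Vmn2r3*, *Cox6a2* and *Ipo4* among 12473 named genes, with Pearson r of log2 CPM from 0.931 to 0.951. With group means subtracted, r was 0.318 to 0.614. *Pck1* was most like *Mxd1*, *Kcnk5*, *Map2k6*, *Fchsd2* and *Tob1* (r 0.823 to 0.860, and 0.555 to 0.753 with group means subtracted). Between *Pck1* and *Pck2* themselves r was -0.36, and -0.04 with group means subtracted. These are descriptions of libraries that share groups and diets.

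Beside *Pck2*, the 13 ISR genes that the study's text names, which do not include it and which the study chose on these samples, had 12 called higher and 0 lower in KO noCys against WT noCys (median log2 fold change 2.70, range 0.41 to 6.55, against a median of -0.02 over all genes). The same count, 12 higher and 0 lower, was found against KO CTR (median 2.39) and against KO noTrp (median 1.98). Of all genes, 14.8%, 10.6% and 7.17% were higher in these comparisons, in that order. On noTrp, where *Pck2* rose in both genotypes, 1 of the 13 was higher and 0 lower against the control diet in KO (median 0.27). The count was the same in WT (median 0.47). Of all genes, 0.779% were higher in KO and 1.7% in WT. *Pck2* itself stood at 1.19 and 1.26 in these comparisons.

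*G6pc* (ENSMUSG00000078650, chr11:101367561-101377903, plus strand), the enzyme that releases free glucose, was not called by edgeR in any comparison. It was 368, 335 and 467 CPM in KO noCys and 362, 603, 381 and 468 CPM in WT noCys. These groups overlapped (-0.22 ± 0.38, edgeR adjusted p = 0.698). The control diet gave 208, 245 and 376 CPM in WT and 131, 330, 318 and 305 CPM in KO, where KO CTR 1 lay far below its group.

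On noTrp *G6pc* was 1163 and 455 CPM in WT and 514, 516, 198, 230 and 214 CPM in KO. Both WT noTrp libraries lay above all 3 WT controls, a 2.93-fold difference that was not called (1.55 ± 0.45, edgeR adjusted p = 0.0633). It was called with DESeq2 (1.54, adjusted p = 0.0395), with library totals alone (1.63, edgeR adjusted p = 0.0357) and without the filter on low counts (1.58, edgeR adjusted p = 0.0151). Without WT noTrp 2, which leaves WT noTrp 1 alone with a spread assumed from the other groups, it was 2.08 (edgeR adjusted p = 0.0189), and without WT noTrp 1 it was 0.72 (edgeR adjusted p = 0.550).

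*Fbp1* (ENSMUSG00000069805, chr13:62864753-62888282, minus strand) was 1463, 1208 and 1277 CPM in KO noCys, above all KO CTR libraries (900, 989, 835 and 900 CPM). The 1.45-fold difference was not called (0.54 ± 0.20, edgeR adjusted p = 0.0574). Of 7 other settings, 4 called it: DESeq2 (0.53), limma-voom (0.54), library totals alone (0.66) and a fit of only the groups compared (0.52). It was called in 0 of 7 fits that left out 1 library. WT noCys (1143, 1361, 927 and 1231 CPM) overlapped KO noCys (0.18 ± 0.20, edgeR adjusted p = 0.531). *Fbp1* was 968, 1123 and 831 CPM in WT CTR. On noTrp it was 2202 and 968 CPM in WT and 1260, 959, 1039, 875 and 1061 CPM in KO, so that WT noTrp 2 lay within the WT controls and only WT noTrp 1 above them. WT noTrp against WT CTR was 0.70 ± 0.23 and not called (edgeR adjusted p = 0.103), and with WT noTrp 1 alone in the group it was 1.18 and called (edgeR adjusted p = 0.00290), but with WT noTrp 2 alone it was -0.01 (edgeR adjusted p = 0.994). The difference of KO effects between noCys and noTrp, 0.78 ± 0.29 (edgeR adjusted p = 0.114), was called with library totals alone (0.94) and with WT noTrp 1 alone (1.26), and was 0.08 with WT noTrp 2 alone.

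*Pcx* (ENSMUSG00000024892, chr19:4510472-4621752, plus strand), at the entry of the path, stayed within 447 to 809 CPM over all libraries, and both ends of that range were WT noTrp libraries. Its largest log2 difference was -0.27 ± 0.17, in KO noTrp against WT noTrp (edgeR adjusted p = 0.717). This value was -0.63 with WT noTrp 1 alone in the WT group and 0.22 with WT noTrp 2 alone, so its sign rested on the library kept. *Slc2a2* (ENSMUSG00000027690, chr3:28697903-28731359, plus strand) ranged from 253 to 406 CPM. The WT CTR and KO CTR libraries met at their ends without overlapping, at 371, 379 and 357 CPM in WT and 357, 324, 323 and 311 CPM in KO, but differed by only -0.17 ± 0.12 (edgeR adjusted p = 0.711).

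*Pklr* (ENSMUSG00000041237, chr3:89136142-89146784, plus strand) was 105, 135 and 127 CPM in KO noCys, above the 50.5, 54.5, 61.3 and 92.6 CPM of WT noCys. The 1.89-fold difference was called (0.92 ± 0.30, edgeR adjusted p = 0.0284), but it was lost without WT noCys 1 (0.81), WT noCys 2 (0.84), WT noCys 3 (0.89), KO noCys 3 (0.84) or KO noCys 4 (0.89), with edgeR adjusted p from 0.0599 to 0.104. KO noTrp had 54.9, 35.4, 38.3, 75.6 and 62.6 CPM, all below KO noCys. That difference was 2.30-fold (1.20 ± 0.29, edgeR adjusted p = 0.00836), and it was 1.12 without KO noCys 3 (edgeR adjusted p = 0.0584). KO CTR (88.9, 74.9, 67.6 and 68.3 CPM) also lay below KO noCys in every library, without a call (0.71 ± 0.30, edgeR adjusted p = 0.102), except with limma-voom (0.79, adjusted p = 0.0413) and in a fit of only the groups compared (0.69, edgeR adjusted p = 0.00808).

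In WT, *Pklr* was 141, 105 and 59.4 CPM on the control diet and 185 and 75.0 CPM on noTrp, so WT CTR overlapped both other WT groups. KO noTrp overlapped WT noTrp through WT noTrp 2, and the difference of -1.29 ± 0.32 was not called (edgeR adjusted p = 0.0945), except with DESeq2 (adjusted p = 0.0198) or without the filter on low counts (adjusted p = 0.0127). The effects of noCys in the 2 genotypes differed by 1.36 ± 0.43, which was not called (edgeR adjusted p = 0.0573) but was called under 6 of 7 other settings. With 1 library left out, it was called in only 2 of 14 fits, with values from 1.04 to 1.63. The KO effect was larger without cysteine than without tryptophan by 2.2 ± 0.44 (edgeR adjusted p = 0.00519). Without WT noTrp 1 it was 1.41 and not called (edgeR adjusted p = 0.0799). The exons of *Pklr* overlap those of *Hcn3* on the opposite strand. *Hcn3*, at 3.23 to 25.4 CPM, differed by -0.13 ± 0.43 between KO noCys and WT noCys (edgeR adjusted p = 0.846). In KO noTrp against WT noTrp it differed by -1.81 ± 0.44 (edgeR adjusted p = 0.0901), and in the difference of KO effects by 1.68 ± 0.62 (edgeR adjusted p = 0.113), with the same signs as *Pklr*. The part of *Hcn3* reads in the *Pklr* counts was not tested.

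*Ppp1r3g* (ENSMUSG00000050423, chr13:35958839-35970388, plus strand), a glycogen-targeting subunit, varied most between libraries of the same group. WT noTrp had 459 CPM in replicate 1 and 11.9 CPM in replicate 2, beside 7.94, 7.27 and 11.7 CPM in WT CTR. The fitted difference of 4.73 ± 1.15 (edgeR adjusted p = 0.0308) rested on replicate 1 and became 0.42 without it (edgeR adjusted p = 0.910). It was not called either without WT CTR 1 (4.65), WT CTR 2 (4.59) or WT CTR 3 (4.95), with limma-voom (3.11) or in a fit of only the groups compared (4.72).

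In the other groups *Ppp1r3g* was 16.9, 34.8, 14.7 and 26.6 CPM in WT noCys and 32.7, 11.1 and 30.0 CPM in KO noCys, which overlap. All WT noCys libraries lay above WT CTR, a difference that was called only in a fit of these groups alone (1.38, edgeR adjusted p = 0.0408). KO CTR had 23.8, 19.9, 69.1 and 41.7 CPM, all above WT CTR. This 4.31-fold difference was not called (2.11 ± 1.01, edgeR adjusted p = 0.519). KO noTrp had 48.6, 134, 8.29, 9.49 and 12.5 CPM, the widest spread of the KO groups.

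*Ppp1r3c* (ENSMUSG00000067279, chr19:36731731-36736653, minus strand), the other targeting subunit, was not called by edgeR in any comparison. It was 55.8, 24.7 and 22.6 CPM in KO noCys and 49.9, 36.5, 101 and 64.7 CPM in WT noCys. These overlapped through KO noCys 1 (-0.90 ± 0.46, edgeR adjusted p = 0.150). The difference was -0.58 without WT noCys 3 (edgeR adjusted p = 0.384) and -1.41 without KO noCys 1 (edgeR adjusted p = 0.0453), and limma-voom with quality weights also called it at -1.09. WT CTR had 24.5, 38.3 and 42.4 CPM, and KO CTR 24.9, 36.7, 37.3 and 73.7 CPM. On noTrp the values were 17.5 and 31.2 CPM in WT and 72.4, 21.4, 24.7, 25.7 and 24.3 CPM in KO, where replicate 1 stood alone.

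The highest correlation of log2 CPM among the 36 pairs of the 9 genes was that of *G6pc* with *Ppp1r3g* (r = 0.70 over 21 libraries, and 0.80 with group means subtracted). WT noTrp 1 was the highest library for both. *Fbp1* and *Pcx* were also alike within groups (0.71 with group means subtracted). *Igfbp1*, a gene that rises in fasting and is held down by insulin, was 1950 CPM in WT noTrp 1 and 206 CPM in WT noTrp 2. The summed level of the 10 immediate early genes was 660 CPM in WT noTrp 1 and 308 CPM in WT noTrp 2, against 108 to 122 CPM in WT CTR, and 6 of the 10 were called higher in WT noTrp against WT CTR, where 1.7% of all genes were higher. The sum was 206 to 482 CPM in WT noCys, a range that includes WT noTrp 2. The part of these differences in the values of *Ppp1r3g* and *G6pc* was not tested.

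**Figure D5:**
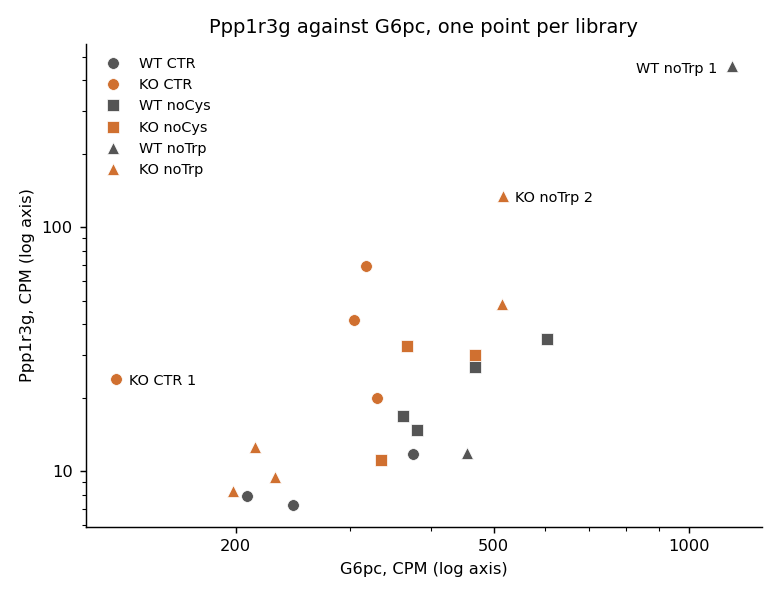
CPM of *Ppp1r3g* against CPM of *G6pc*, both on log axes, with 1 point per library; grey is WT, orange is KO, circles are CTR, squares noCys and triangles noTrp. WT noTrp 1 lies at the upper right (1163 CPM of *G6pc*, 459 CPM of *Ppp1r3g*), and its partner WT noTrp 2 lies among the other groups (455 and 11.9 CPM).

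For the other members, the gene most alike over the libraries was *Slc25a25* for *G6pc* (r = 0.86), *Numa1* for *Fbp1* (0.84), *Slc25a32* for *Pcx* (0.88), *Tkfc* for *Pklr* (0.84), *Nid2* for *Slc2a2* (0.84), *Ahr* for *Ppp1r3c* (0.77) and *Fh1* for *Ppp1r3g* (0.87).

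The wider path was read from a list of 112 genes of glycolysis, gluconeogenesis and glycogen, of which 104 were tested. In KO noCys against WT noCys, 17 were higher and 15 lower, with a median log2 fold change of 0.00 (-0.02 over all genes). The 30.8% called is close to the 28.2% of all genes. *Tkfc*, the triokinase of fructose breakdown, was 641 ± 61.0 CPM (SD, n = 3) against 274 ± 43.2 CPM (SD, n = 4), a log2 fold change of 1.22 ± 0.17 (edgeR adjusted p = 3.80e-05). The enolase *Eno3* rose by 0.80, the UDP-glucose pyrophosphorylase *Ugp2* by 0.68 and the muscle-type glycogen synthase *Gys1* by 0.79. Among 15 glycogen enzymes tested, 5 were higher and 0 lower, where 14.8% of all genes were higher and 13.4% lower. In KO noCys against KO CTR, 1 was higher and 1 lower (10.6% and 9.59% of all genes). Against KO noTrp, 1 was higher and 0 lower (7.17% and 6.75%). The difference of noCys effects was called for 0 of the 15 (7.44% of all genes).

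On the other side, *Pfkfb3* makes the glycolytic activator fructose 2,6-bisphosphate. It was lower in KO noCys than in WT noCys, at 19.4 ± 4.38 CPM against 56.2 ± 7.4 CPM (-1.53 ± 0.24, edgeR adjusted p = 0.000117). The aldolase *Aldoc* (-1.44) and the muscle phosphofructokinase subunit *Pfkm* (-1.23) were lower as well. Of 20 genes for hormone signalling and transcription factors, 1 was higher and 7 were lower, among them *Foxo1* (-0.98) and *Cebpb* (-0.78), both regulators of gluconeogenic genes. In the same comparison *Pck1* was lower, and *G6pc* was not called (-0.22, edgeR adjusted p = 0.698). Whether *Foxo1* or *Cebpb* had a part in either was not tested. Of the 16 other gluconeogenic enzymes and carriers, 4 were higher and 1 lower.

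Against KO CTR, KO noCys had 10 of the 104 genes higher and 11 lower, which is 20.2%, the same share as over all genes. DESeq2 called 25 and limma-voom 36 of them. *Tkfc* (0.93) and the mitochondrial alanine aminotransferase *Gpt2* (0.69) rose, and *Aldoc* (-2.2) and the liver transcription factor *Onecut1* (-1.95) fell. Against KO noTrp it had 11 higher, among them *Tkfc* (1.11), and 10 lower, led by *Aldoc* (-1.09) and *Pfkm* (-0.88), together 20.2% against 13.9% of all genes.

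Tryptophan removal in KO gave 2 higher, the CREB coactivator *Crtc2* (0.45) and the cytosolic alanine aminotransferase *Gpt* (0.42), and 4 lower, led by *Pfkfb3* (-1.53) and *Aldoc* (-1.11), together 5.77% against 1.87% of all genes. DESeq2 called 9 and limma-voom 11. In WT it gave 5 higher, led by *Sik1* (2.64), a kinase that restrains CREB coactivators, and the aspartate aminotransferase *Got1* (1.73), and 2 lower, *Aldoc* (-1.42) and the glycerol 3-phosphate dehydrogenase *Gpd1* (-0.58). These 7 (6.73% against 3.19% of all genes) were 10 with DESeq2 and 1 with limma-voom. The 2 WT noTrp libraries were far apart for *Got1*, at 2090 CPM in replicate 1 and 574 CPM in replicate 2, beside 281 to 498 CPM in WT CTR. They were also far apart for *Sik1*, at 47.3 and 173 CPM, beside 12.4 to 23 CPM in WT CTR. Cysteine removal in WT gave 2 higher, *Sik1* (1.92) and *Gpt* (0.39), and 0 lower (1.92% against 0.661% of all genes), with 5 called by DESeq2 and 7 by limma-voom. KO against WT on the control diet and on noTrp each had 0 of the 104 called by edgeR, with 11 and 15 genes at an unadjusted p under 0.05. DESeq2 called 0 and 2, and limma-voom 2 and 0. The effect of noCys differed between the genotypes for 1 gene upward and 5 downward, and the KO effect between the depleted diets for 5 upward and 2 downward, which is 5.77% and 6.73% against 7.44% and 6.35% of all genes. For the difference of noCys effects DESeq2 called 9 and limma-voom 16, and for that of KO effects 10 and 6.

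Other lists were read beside these genes. In KO noCys against WT noCys, 7 of 10 acute-phase genes were lower and 0 higher (median -2.27), as were 4 of 10 immediate early genes and 5 of 13 clock genes tested, where 13.4% of all genes were lower. Of 10 genes that rise on feeding, most are lipogenic. Their summed level was 884 to 1420 CPM in KO noCys and 7380 to 12100 CPM in WT noCys. It was 915 to 1360 CPM in KO noTrp and 2450 to 6710 CPM in KO CTR. Most of the WT noCys sum was *Scd1*, the stearoyl-CoA desaturase, at 6881 to 11150 CPM there and 258 to 836 CPM in KO noCys. By gene *Scd1* was lower (-4.24), *Acaca* was higher (0.60) and the other 8 were not called, with a median of 0.06. *Pklr*, which is also raised by feeding, moved upward in that comparison. The summed level of 10 genes raised by fasting was 6680 to 10400 CPM in KO noCys and 9430 to 10700 CPM in WT noCys, with 1 higher and 1 lower. For both lists this is 2 of 10, below the 28.2% of all genes called. Whether these differences have a part in the changes of *Pck1* or *Pklr* was not tested.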

How the data were processed

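Liver poly(A) RNA was sequenced from both ends, and the authors aligned the reads to GRCm38 with HISAT2 2.1.0 and made the deposited gene counts with htseq-count (HTSeq 0.11.0). The deposited values are raw whole-number counts with no normalization. Neither the annotation release nor the strandedness of the counting is given in the sources used here. The table has 1 further column that no sample label matches, which was set aside. Groups and replicate numbers were taken from the sample titles, which call the samples biological replicates.

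Genes were kept by filterByExpr (minimum count 10, minimum total 15), which left 14370 of 46078. Counts were scaled by TMM and compared by the quasi-likelihood F-test (two-sided) of edgeR 4.0.16 in R 4.3.3, in a single model over all 6 groups. The Benjamini-Hochberg adjustment covered all genes tested, and a gene was called at an adjusted p under 0.05. The steps were tested on simulated data. The log2 ratio of *Pck2* to *Pck1* counts (pseudocount 0.5) was compared by exact permutation over libraries, adjusted over 8 comparisons. CPM are counts scaled by the TMM library sizes, and levels between genes are per kilobase of merged GENCODE M21 exons. Totals of 8889951 to 27230852 counts set the precision of low genes such as *Pck2*.

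The 9 genes and the gene lists were chosen with earlier results of these data known. Genes of the wider list were named by rule: called, a mean over 2 log2 CPM and no overlap between libraries of the groups compared, taking the 5 largest changes in each direction for KO noCys against WT noCys and the 2 largest otherwise. 1 gene that the rule names is not reported here. Likeness was the Pearson correlation of log2 CPM. The alternatives were DESeq2 1.42.0, limma-voom 3.58.1 with sample quality weights, RLE size factors, library totals alone, no filter, a fit of only the compared groups, a replicate block, and omission of each library in turn.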

Additional observations from a re-analysis of the deposited data

Results flagged for a closer look

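The effect of removing cysteine differed between the genotypes for *Pck2* by 3.26 on the log2 scale and for *Pck1* by -0.87, both by the edgeR test of the difference itself. The 2 differences had opposite signs. The log2 fold change of noCys against CTR was 3.92 in KO and 0.66 in WT for *Pck2*, and -0.35 in KO and 0.52 in WT for *Pck1*, of which edgeR called the KO value of *Pck2* alone. The WT value of *Pck1* was called by DESeq2 and limma-voom, and its KO value by limma-voom. The KO effect differed between the noCys and noTrp diets for *Pck2* by 3.32 and for *Pklr* by 2.2, again by the test of the difference. For *Pklr*, KO against WT was 0.92 on noCys and -1.29 on noTrp, where the noTrp value was not called and rests on 2 WT noTrp libraries of 185 and 75.0 CPM.

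2 libraries lay apart from their groups among the 30 sets of 4 or 5 libraries tested, by the gap to the nearest library as a share of the group's range. *G6pc* in KO CTR 1 was 131 CPM against 305 to 330 CPM in the other 3 (share 0.874). *Ppp1r3c* in KO noTrp 1 was 72.4 CPM against 21.4 to 25.7 CPM in the other 4 (share 0.916). Chance gives such a gap in about 1 of 20 sets.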

How the results depend on the processing

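Of 1395 log2 fold changes of the 9 genes recomputed under the alternatives, 1334 stayed on the same side of the threshold, 24 lost a call, 37 gained one and 0 called values changed sign. The number of members called was unchanged to within 1.5 times except as follows, and the cause was not tested. KO noTrp against WT noTrp had 1 with DESeq2 and 1 without the filter. KO noCys against KO CTR had 2 with DESeq2, 4 with limma-voom, 2 with library totals alone and 3 with only the groups compared. WT noCys against WT CTR had 1 with DESeq2, 1 with limma-voom and 1 with only the groups compared. WT noTrp against WT CTR had 4 with DESeq2, 0 with limma-voom, 4 with library totals alone and 0 with only the groups compared.

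Leaving out single libraries gave 0 to 4 members for KO noTrp against WT noTrp, 1 to 2 for KO noCys against KO CTR, 0 to 5 for WT noTrp against WT CTR and 1 to 2 for KO noCys against KO noTrp. It gave 1 to 3 for the difference of noCys effects and 1 to 3 for the difference of KO effects. Library totals alone moved the median log2 fold change of all genes to 0.20 in KO noCys against WT noCys, 0.13 in KO noCys against KO CTR, and 0.16 and 0.19 in the differences of noCys effects and of KO effects.

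The number of all genes called varied more. For KO CTR against WT CTR it was 46 with edgeR, 122 with DESeq2, 86 with limma-voom, 154 without the filter and 6 with only the groups compared. For KO noTrp against WT noTrp it was 28, 117, 6, 101 and 4 in the same order. For WT noCys against WT CTR it was 95, 305, 533, 269 and 396, and for WT noTrp against WT CTR 459, 753, 32, 505 and 3. For KO noTrp against KO CTR it was 269, 606, 610, 308 and 136. In the difference of noCys effects limma-voom called 2179 genes against 1069 with edgeR, and in that of KO effects 553 against 912, and for KO noCys against KO noTrp 3204 against 2000. Leaving out single libraries moved these counts and the shares of all genes called that go with them. Without KO noCys 3, KO noCys against WT noCys had 2358 genes (4055 with all libraries), against KO CTR 1379 (2906) and against KO noTrp 570 (2000), and the differences of noCys and KO effects had 430 and 416. Without WT CTR 3, WT noCys against WT CTR had 1, WT noTrp against WT CTR 146 and KO CTR against WT CTR 10. The lowest count was 9 for KO CTR against WT CTR (without KO CTR 2), 99 for WT noTrp against WT CTR (without WT noTrp 1) and 105 for KO noTrp against KO CTR (without KO CTR 1). KO noTrp against WT noTrp had 14 without WT noTrp 1 and 230 without WT noTrp 2.

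The sample titles share replicate numbers, but same-numbered libraries did not deviate together (correlation of deviations from group means -0.355 to 0.353, median -0.0346, n = 41 pairs, and 7 of 20 libraries correlated best with their own number). With the replicate block, WT noTrp against WT CTR had 0 members called (*Pck2* 1.27, *Ppp1r3g* 4.52), the difference of noCys effects gained *Pklr* (1.38), the genes called fell to 10 in KO CTR against WT CTR, 14 in WT noCys against WT CTR, 191 in WT noTrp against WT CTR and 1302 in KO noCys against KO noTrp, and the mean within-number difference of the *Pck2* to *Pck1* ratio was 0.89 for KO noTrp against WT noTrp. Low depth limits *Pck2*, with 32 to 169 counts outside KO noCys, and the groups of 2 to 5 libraries limit the exact tests.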

Other observations

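Gluconeogenic genes are known to be higher around the portal vein, and lists of zonated genes were read beside them. In KO noCys against WT noCys, 1 of 10 periportal genes was higher and 2 were lower (median log2 fold change -0.22). Of 10 pericentral genes, 2 were higher and 0 lower (median 0.32). These small counts are near the shares over all genes, 14.8% higher and 13.4% lower. The summed periportal genes ranged from 8250 to 14000 CPM over the 21 libraries, with the highest value in WT noTrp 1, and the pericentral genes from 10100 to 16500 CPM.

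Of the markers of other cells, those of immune cells summed to 69.1 to 192 CPM, erythroid to 108 to 389 CPM, gut and gallbladder to 34.5 to 88.2 CPM and pancreas to 10.5 to 34.9 CPM. In KO noCys against WT noCys 3 of 5 erythroid genes tested were lower and 0 higher (median log2 fold change -1.02), and the sums did not overlap, at 128 to 158 CPM against 183 to 375 CPM. The 7 immune genes tested had log2 fold changes of -0.64 to -0.33 there, which edgeR did not call.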
